A study of Caenorhabditis elegans with 2 samples.

Results

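Among the genes named as targets of HLH-8, 4 that act in sex muscle and enteric muscle of the nematode Caenorhabditis elegans were followed here: arg-1, egl-15, mls-1 and ceh-24. They were chosen by name, with earlier results of these data known, and are 4 of the 19973 nuclear protein-coding genes of the Ensembl annotation. Every peak whose summit lay inside one of these genes or within 10 kb of either end was taken from the deposited lists of the genome build ce11. This gave 5 of the 1120 peaks of the optimal list, 26 of the 25904 candidates of the pooled list, 26 of 24268 in replicate 1 and 25 of 23945 in replicate 2.

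The measurement was chromatin immunoprecipitation with sequencing (ChIP-seq), which sequences the DNA fragments pulled down with a protein. All samples belonged to 1 group of 2 biological replicates. They were whole hermaphrodite embryos of the late embryonic stage, strain OP63, taken 3.5 hours after bleaching, a treatment that leaves eggs of similar age. Both carried a stable transgene for HLH-8 with a GFP-FLAG tag at its C terminus, and the antibody was against GFP. The control libraries and an untagged strain were not analysed here. The candidate lists hold peaks together with background, so that a later step can select the reproducible ones, and the optimal list is the outcome of that step. The optimal list equalled the 1120 strongest pooled candidates, the weakest with a signal of 57.36 and the next candidate with 57.35. Signal is the authors' deposited value per peak, in arbitrary units, and rank 1 is the highest signal of a list. Signals of the pooled list ran from 11.8 to 1132 and those of the replicate lists from 7.50 to 583, so a signal was ranked only within its own list. Read depth is unknown from these lists.

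HLH-8 is the worm relative of Twist, a transcription factor of the basic helix-loop-helix class that patterns mesoderm in many animals. It pairs with itself or with HLH-2, the worm E protein, and binds short DNA sites called E-boxes, written CANNTG, of which CATATG is the form best known from its target promoters. HLH-8 is known from the M mesoblast, whose descendants include the vulval and uterine muscles, and from the enteric muscles that drive defecation. The sex muscles arise from M only after hatching, whereas the enteric muscles are born in the embryo. In whole embryos, fewer cells that carry the tagged protein and less binding per cell cannot be told apart.

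The 4 genes differed in where the HLH-8 signal lay and how strong it was. mls-1 carried an optimal peak at its own 5′ end, with a pooled signal of 81.0 at rank 526, and a second of nearly the same signal past its 3′ end. arg-1 and egl-15 had weaker promoter candidates below the optimal list, at 30.8 and 25.4. Both were found in the 2 replicate lists, which also hold background. ceh-24 had 16.0 in its promoter window, found in replicate 1 but not in replicate 2, and an optimal peak of 76.4 further upstream. An optimal summit lay within 10 kb of 3 of the 4 genes (egl-15, mls-1 and ceh-24), whereas 21.9% of all 19973 genes had one. In the promoter window, from 2000 bp upstream to 500 bp downstream of a 5′ end, it was 1 of 4 (mls-1), whereas 5.75% of all genes had an optimal summit there. A pooled candidate of any strength lay in the window of 4 of 4, whereas 53.0% of all genes had one. The 4 genes were chosen by name with earlier results of these data known, and there was 1 group of samples. These counts are therefore descriptions, and no test was made.

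**Figure D1:**
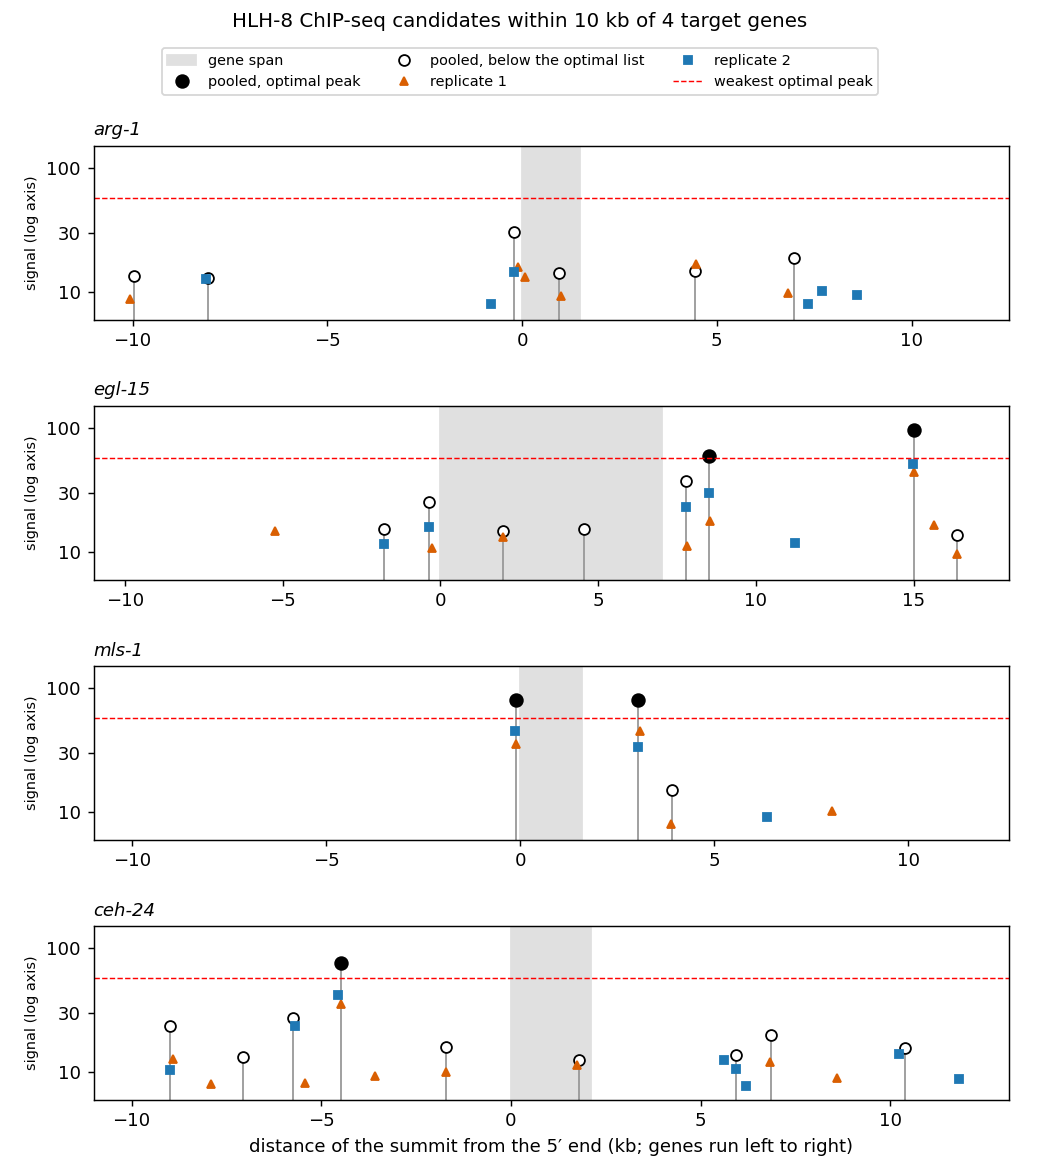
Candidates around arg-1, egl-15, mls-1 and ceh-24, by distance of the summit from the 5′ end in kb (x) and signal in arbitrary units (y, log axis). Circles are pooled candidates, filled where they are among the 1120 optimal peaks, triangles are replicate 1, squares are replicate 2, the grey band is the gene and the dashed line is the weakest optimal peak, at 57.36. Filled circles stand at egl-15, mls-1 and ceh-24, 5 in all, and none stands at arg-1.

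The DNA around the promoter summits shows which E-boxes lay under the signal. The sequences below run 80 bp to either side of the pooled summit of the strongest promoter candidate of arg-1, egl-15 and mls-1, on the plus strand, which is the coding strand of all 4 genes. Every E-box is in capitals, and the other strand counts too, so that CATCTG belongs to the class CAGATG, while CATGTG is a form of CACATG and CACTTG is a form of CAAGTG. The arg-1 sequence is ce11 chrX:1786632-1786792, the egl-15 sequence is chrX:11015948-11016108 and the mls-1 sequence is chrIII:7460144-7460304, all from the RefSeq sequence of that build.
arg-1 promoter: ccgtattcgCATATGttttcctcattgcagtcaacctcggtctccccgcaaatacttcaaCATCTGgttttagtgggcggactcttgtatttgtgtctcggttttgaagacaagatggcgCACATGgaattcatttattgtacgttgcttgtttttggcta
egl-15 promoter: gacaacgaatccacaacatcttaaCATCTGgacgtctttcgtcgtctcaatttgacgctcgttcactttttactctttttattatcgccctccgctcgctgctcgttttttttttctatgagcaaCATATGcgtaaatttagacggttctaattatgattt
mls-1 promoter: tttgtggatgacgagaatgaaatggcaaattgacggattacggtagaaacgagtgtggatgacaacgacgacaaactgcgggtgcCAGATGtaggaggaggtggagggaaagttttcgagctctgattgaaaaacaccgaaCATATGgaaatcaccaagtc
All 3 stretches hold a CATATG and a CAGATG, in an order and at distances from the summit that differ between the genes. The ceh-24 promoter candidate has no E-box within 80 bp of its summit. How many promoter candidates of all genes hold both classes in such a stretch was not computed. In the text below, the distance of an E-box is that of its first base on the plus strand.

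arg-1 (WBGene00000185), on chromosome X at 1786907-1788405, encodes a Notch ligand of the DSL family, and its promoter is a standard reporter for HLH-8 activity. Its promoter candidate spanned chrX:1786490-1786933, with the summit in intergenic DNA 195 bp upstream of the 5′ end. The pooled signal was 30.8, which ranked 3494 of 25904, with a deposited -log10 q of 1.68. Replicate 1 had 15.8 (rank 4262) and replicate 2 had 14.4 (rank 6106), a mean of 15.1 ± 1.00 (SD, n = 2). The replicate signals lay close together, with a log2 ratio of replicate 2 over replicate 1 of -0.14. The -log10 q was 0.99 in replicate 1 and 0.7 in replicate 2. Among the 10593 genes with a promoter candidate, 72.5% had a lower pooled signal than arg-1, and among those with one in the replicate it was 69.1% in replicate 1 and 59.4% in replicate 2. Within 50 bp of the summit lay 1 CAGATG and 1 CACATG. The only CATATG of the arg-1 promoter window lay 71 bp from the summit, 266 bp upstream of the 5′ end. The summit in replicate 1 was 84 bp downstream of the pooled summit and that in replicate 2 was 10 bp upstream of it.

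No optimal peak lay within 10 kb of arg-1. Its other 5 pooled candidates had signals of 12.9 to 18.8 at ranks 10517 to 22509, and each had a summit within 200 bp in 1 replicate only. A candidate 4441 bp downstream of the 5′ end had a pooled signal of 14.8 at rank 17520, and 16.7 in replicate 1 with no counterpart in replicate 2. In replicate 1 it was thus stronger than the promoter candidate, which had 15.8. Among the 18895 genes with any candidate within 10 kb, 49.2% had a lower strongest candidate than arg-1, so arg-1 was near the middle of all genes on that scale.

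egl-15 (WBGene00001184), on chromosome X at 11016400-11023421, encodes the receptor for fibroblast growth factor (FGF) through which migrating sex myoblasts are guided to the gonad, and it is expressed in some vulval muscles. Its strongest promoter candidate spanned chrX:11015806-11016249, with the summit 372 bp upstream of the first of its 5 annotated 5′ ends. The pooled signal was 25.4 at rank 5290, with a -log10 q of 0.93. Replicate 1 had 10.8 (rank 11625) and replicate 2 had 16.0 (rank 4743), a mean of 13.4 ± 3.70 (SD, n = 2) and a log2 ratio of 0.57. The site was thus placed lower in the list of replicate 1 than in that of replicate 2. Among genes with a promoter candidate, 63.1% were lower than egl-15 in the pooled list, 37.4% in replicate 1 and 65.9% in replicate 2. The promoter window held 3 CATATG sites, at 559, 327 and 195 bp upstream of the first 5′ end, and all of them lay inside the interval of this candidate. The middle one, in the sequence above, was 45 bp from the pooled summit. A weaker candidate 1777 bp upstream had a pooled signal of 15.3 at rank 16425, and 11.6 in replicate 2 alone.

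mls-1 (WBGene00003376), on chromosome III at 7460341-7461934, encodes a T-box transcription factor that gives uterine muscle its identity. Its promoter peak, at chrIII:7460002-7460445, was in the optimal list, with the summit 117 bp upstream of the 5′ end. The pooled signal was 81.0 at rank 526. Replicate 1 had 35.5 (rank 678) and replicate 2 had 44.98 (rank 519), a mean of 40.2 ± 6.72 (SD, n = 2) and a log2 ratio of 0.34. Among genes with a promoter candidate, 94.5% were lower than mls-1 in the pooled list, 93.4% in replicate 1 and 94.3% in replicate 2, the highest share of the 4 genes in each list. A CAGATG lay 5 bp from the summit, and the only CATATG of the window lay 61 bp from the summit and 56 bp upstream of the 5′ end. The noncoding RNA gene H14A12.9 ended 24 bp before the summit, inside the interval of the peak.

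ceh-24 (WBGene00000447), on chromosome V at 13813231-13815350, encodes an NK-2 class homeodomain protein expressed in vulval muscles, a pharyngeal muscle and head neurons. The only candidate in its promoter window had its summit 1712 bp upstream of the 5′ end, with a pooled signal of 16.0 at rank 14942 and a -log10 q of 0.15. Replicate 1 had 10.1 (rank 13336), and replicate 2 had no summit within 200 bp. This was a weak candidate: only 27.9% of genes with a promoter candidate were lower than ceh-24 in the pooled list, and 31.7% in replicate 1. No E-box lay within 50 bp of its summit. The promoter window of ceh-24 held 3 CATATG sites, at 1959, 1950 and 393 bp upstream of the 5′ end, none of them inside a candidate. The site nearest to the gene, at ce11 chrV:13812798-13812883 with 40 bases to either side, is shown because it lay 1319 bp from the nearest pooled summit, in contrast to the sites of the other 3 genes.
ceh-24 upstream CATATG: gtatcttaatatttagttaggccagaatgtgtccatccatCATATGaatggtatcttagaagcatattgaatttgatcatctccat
It is the only E-box in this stretch.

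**Figure D2:**
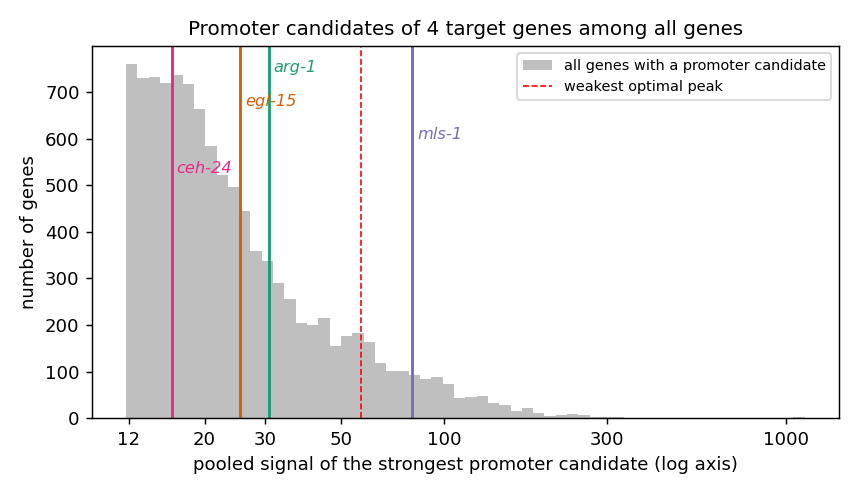
Histogram of the pooled signal of the strongest promoter candidate (x, log axis, arbitrary units) over the 10593 genes with one (y, number of genes). Solid lines mark ceh-24 (16.0), egl-15 (25.4), arg-1 (30.8) and mls-1 (81.0), and the dashed line marks the weakest optimal peak, with mls-1 alone to its right.

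The 4 promoter signals had a median of 28.1, whereas the 10593 genes with a promoter candidate had a median of 20.8 and quartiles of 15.5 and 32.8. In the pooled list mls-1 came first, then arg-1, egl-15 and ceh-24. In replicate 1 the order was the same. In replicate 2 egl-15, at 16.0, was above arg-1, at 14.4, and their replicate means of 13.4 ± 3.70 and 15.1 ± 1.00 (SD, n = 2 each) differed by less than the SD of egl-15. mls-1 was above both in each replicate without overlap. When all 19973 genes were counted, with genes lacking a candidate as the lowest, the shares below arg-1, egl-15, mls-1 and ceh-24 were 85.4%, 80.4%, 97.1% and 61.8%.

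For egl-15, mls-1 and ceh-24, signal outside the promoter window exceeded that within it or came close to it. Downstream of egl-15 lay 3 candidates stronger than that at its promoter. The first, chrX:11023953-11024396, had its summit 754 bp past the end of the gene and a pooled signal of 37.5 at rank 2439, below the optimal list, with 11.1 in replicate 1 and 23.3 in replicate 2 (17.2 ± 8.61, SD, n = 2, log2 ratio 1.07). The second, chrX:11024698-11025141, had its summit 1499 bp past the end and was an optimal peak with 59.1 at rank 1048, near the lower edge of that list, and with 17.8 in replicate 1 and 30.2 in replicate 2 (24.0 ± 8.83, SD, n = 2, log2 ratio 0.77). Both were higher in replicate 2, and the first had the largest log2 ratio of the 9 member candidates found in both replicates. The first ranked 10778 in replicate 1, with a -log10 q of 0.27, and 2042 in replicate 2. The second ranked 3195 in replicate 1 and 1222 in replicate 2. The protein-coding 5′ end nearest to both belonged to ldb-1, a LIM domain binding protein gene, 4742 bp and 3997 bp further downstream, so the peaks lay closer to the 3′ end of egl-15 than to any protein-coding 5′ end. The third, chrX:11031347-11031568, was an optimal peak in an intron of ldb-1, 8001 bp past the end of egl-15, with 96.9 at rank 337, and with 44.4 in replicate 1 and 51.4 in replicate 2 (47.9 ± 5.00, SD, n = 2). It was the strongest candidate within 10 kb of any of the 4 genes and had no E-box within 50 bp.

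Past the end of mls-1, an optimal peak at chrIII:7463145-7463588 had a pooled signal of 80.1 at rank 547, against 81.0 at the promoter. Replicate 1 had 45.4 (rank 367) and replicate 2 had 33.5 (rank 976), a mean of 39.5 ± 8.41 (SD, n = 2) and a log2 ratio of -0.44. The order of the mls-1 peaks therefore turned between replicates, with the downstream one higher in replicate 1 and the promoter one higher in replicate 2. The downstream summit was 1433 bp past the end of mls-1 and 430 bp upstream of the 5′ end of H14A12.3, a protein-coding gene named only by its sequence identifier, so it lay in the promoter window of that gene. The DNA at the 3 downstream sites with an E-box near the summit and a rank of 3000 or better follows, again 80 bp to either side of the summit on the plus strand of ce11. The first egl-15 site is chrX:11024095-11024255, the second is chrX:11024840-11025000 and the mls-1 site is chrIII:7463287-7463447.
egl-15 downstream, rank 2439: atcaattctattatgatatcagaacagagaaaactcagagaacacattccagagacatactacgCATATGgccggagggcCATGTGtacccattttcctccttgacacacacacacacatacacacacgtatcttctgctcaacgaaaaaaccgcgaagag
egl-15 downstream, rank 1048: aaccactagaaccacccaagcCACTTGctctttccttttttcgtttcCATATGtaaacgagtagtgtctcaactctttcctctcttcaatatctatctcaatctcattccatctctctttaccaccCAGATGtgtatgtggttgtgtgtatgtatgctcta
mls-1 downstream, rank 547: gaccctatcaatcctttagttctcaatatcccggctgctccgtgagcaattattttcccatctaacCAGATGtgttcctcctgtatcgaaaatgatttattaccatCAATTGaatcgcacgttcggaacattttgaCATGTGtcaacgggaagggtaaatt
Both egl-15 sites carry a CATATG within 50 bp of the summit, whereas the mls-1 site carries a CAGATG and a CAATTG there.

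The optimal peak near ceh-24, chrV:13808527-13808970, had its summit 4482 bp upstream of the ceh-24 5′ end and a pooled signal of 76.4 at rank 617. Replicate 1 had 35.7 (rank 670) and replicate 2 had 42.03 (rank 589), a mean of 38.9 ± 4.49 (SD, n = 2) and a log2 ratio of 0.24. Its nearest protein-coding 5′ end was that of swan-1, which encodes a WD40 repeat protein, 1512 bp away, so the peak lay in the promoter window of swan-1 and outside that of ceh-24. It had no E-box within 50 bp. A weaker candidate 252 bp upstream of swan-1 had a pooled signal of 27.6 at rank 4361, and 23.6 in replicate 2. No replicate 1 summit lay within 200 bp, but a replicate 1 candidate with a signal of 8.13 at rank 21103 overlapped its interval. The other 6 pooled candidates near ceh-24, outside its promoter window, had signals of 12.5 to 23.8, and the strongest of these lay in the 5′ untranslated exon of the neighbouring gene swan-2. These lists give no assignment of a distal peak to a gene.

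Agreement between replicates followed the rank of the candidates. The 2 are not independent, because the pooled list comes from both replicates and the optimal list selects reproducible peaks. Of the 26 pooled candidates near the 4 genes, 9 had a summit within 200 bp in both replicates, or 34.6%, against 32.8% of all 25882 nuclear pooled candidates. All 5 optimal peaks were in both, and so were the 1 candidate at ranks 1121 to 3000 and 2 of 3 at ranks 3001 to 6000. At ranks 6001 to 12000 it was 1 of 3, and at ranks 12001 to 25904 it was 0 of 14. Over all nuclear candidates the shares in these bands were 99.8%, 95.3%, 73.6%, 37.8% and 8.11%. The arg-1 and egl-15 promoter candidates, at ranks 3494 and 5290, thus stood in a band where most candidates recurred, and the ceh-24 promoter candidate, at rank 14942, in one where few did. Taken singly, 19 of the 26 were found in replicate 1, 14 in replicate 2 and 2 in neither, while of all 25882 nuclear candidates 15293 were found in replicate 1, 15911 in replicate 2 and 3167 in neither.

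At the 9 candidates found in both, the median log2 ratio of replicate 2 over replicate 1 was 0.24 with an SD of 0.49, and replicate 2 was higher at 6. Over all 8489 such candidates the median was 0.09 with an SD of 0.62, and replicate 2 was higher at 56.5%. The members' ratios ran from -0.44 at the downstream mls-1 peak to 1.07 at the first downstream egl-15 site.

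**Figure D3:**
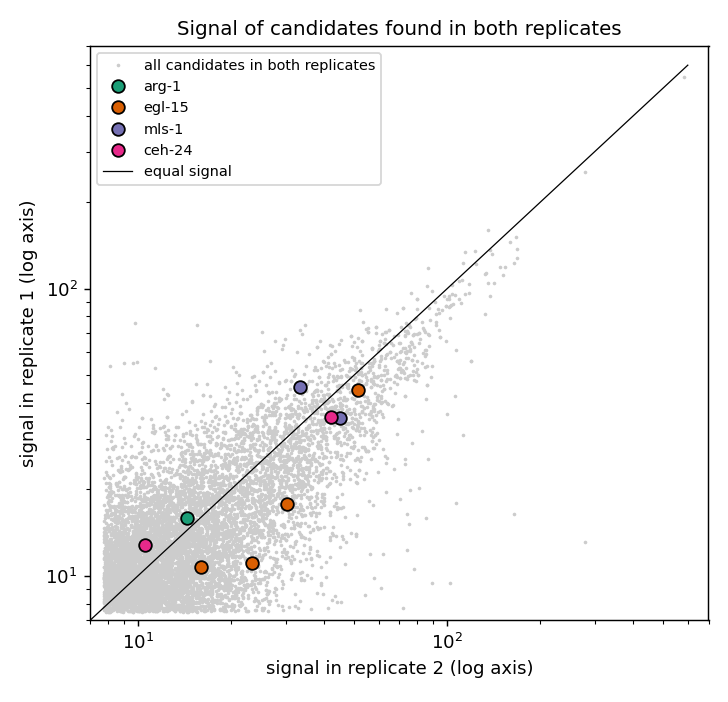
Signal in replicate 2 (x) and replicate 1 (y), both on log axes in arbitrary units, at every pooled candidate found in both replicates (grey) and at the 9 near the 4 genes (coloured by gene). Points on the line have equal signal; the egl-15 downstream sites lie below it, with 23.3 and 30.2 in replicate 2 against 11.1 and 17.8 in replicate 1.

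An E-box of any of the 10 classes lay wholly within 50 bp of the promoter summit in 3 of the 4 genes (arg-1, egl-15 and mls-1), against 36.4% of the 10593 genes with a promoter candidate. For CATATG it was 1 of 4 (egl-15), against 2.07% of those genes. With 100 bp on either side, CATATG was found at 3 of 4 (arg-1, egl-15 and mls-1), against 4.09%, because the sites of arg-1 and mls-1 lay 71 and 61 bp from their summits. With 25 bp it was 0 of 4, against 1.13%. A CATATG from 1000 bp upstream to 200 bp downstream of a 5′ end was present in 4 of 4 genes, against 23.1% of all 19973 genes, and a CAGATG likewise in 4 of 4, against 46.1%. The 4 genes were picked from named HLH-8 targets, and CATATG is the E-box best known from such promoters. The CATATG counts at their promoters, here and below, are therefore not independent of the choice of genes. No enrichment is read from them. Counts of E-boxes of all classes in the promoter window were 11 for arg-1, 14 for egl-15, 9 for mls-1 and 8 for ceh-24. Over all 19973 genes, the window of 1 5′ end held a median of 10.0, with quartiles of 8.0 and 13.0. Of the E-boxes of the 4 genes, 4, 10, 3 and 1 lay inside a pooled candidate. Some of those of egl-15 lay in its weaker candidate, at rank 16425. Of the CATATG sites it was 1 of 1, 3 of 3, 1 of 1 and 0 of 3. The shares inside a candidate over the promoter windows of all genes were not computed, for all classes or for CATATG. Over the whole nuclear genome, 11.1% of E-boxes of all classes lay inside a candidate. Without the promoter shares, these counts are not a result about the 4 genes.

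Over the 26 candidates near the 4 genes, 10 had an E-box of some class within 50 bp, while the share over all nuclear pooled candidates was 35.1%. Of the 5 optimal peaks 3 had one, while 48.9% of all nuclear optimal peaks did. CATATG lay at 3 of the 26, while 2.13% of all nuclear candidates had it. All 3 belonged to egl-15, at its promoter and at its first and second downstream sites. Read from the E-boxes, 384 lay in the genes and their 10 kb flanks, and 13 of these were within 50 bp of a pooled summit, or 3.39%, against 2.81% of 414570 in the nuclear genome. Positions this close to a summit made up 2.70% of the member windows and 2.48% of the genome. By class, the share was above that of the genome for CAGCTG (2 of 17, or 11.8%, against 3.78%), CATATG (3 of 26, or 11.5%, against 2.76%), CAGATG (3 of 33, or 9.09%, against 3.83%), CACATG (2 of 38, or 5.26%, against 3.84%) and CAATTG (1 of 41, or 2.44%, against 2.07%). It was below for CAAGTG (1 of 42, or 2.38%, against 2.59%) and CAAATG (1 of 98, or 1.02%, against 2.20%). For CAACTG it was 0 of 55, against 2.36%, for CACCTG it was 0 of 28, against 3.43%, and for CACGTG it was 0 of 6, against 3.66%. These shares rest on few sites, and a match is not evidence of a bound site. The GC content within 50 bp of the summits was 41.7% ± 10.1 (SD over 26 candidates), against 40.1% ± 10.9 over all nuclear pooled candidates.

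**Figure D4:**
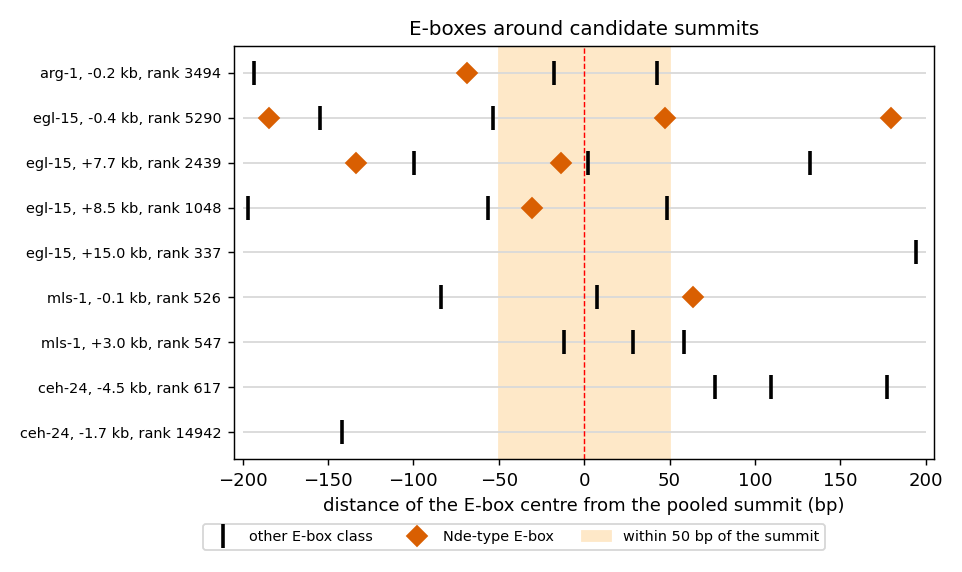
Positions of E-boxes, as the distance of their centre from the pooled summit in bp (x), at the promoter candidates of the 4 genes and the other candidates within 10 kb of them ranked 3000 or better (rows, with the distance of the summit from the 5′ end and the rank). Diamonds are CATATG (Nde-type) and bars the other classes, and the shaded band is 50 bp on either side; diamonds fall in it in the egl-15 rows only.

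Relatives of the 4 genes and other genes of these muscles were read by the same window. The Notch, FGF signalling, T-box and NK-2 homeobox lists each count 1 of the 4 genes itself, and all 4 had a pooled candidate there. Of all genes, 5.75% had an optimal summit in the promoter window. Of 14 genes of Notch ligands and receptors and their nuclear effector, the family of arg-1, 0 had one. A pooled candidate of any strength lay in the promoter window in 6 of these 14 and in 11 of 13 FGF signalling genes. It was 10 of the 22 listed T-box genes and 3 of 4 NK-2 homeobox genes, while 53.0% of all genes had one. The T-box name tbx-42 was recorded as missing from the gene names used. Of the FGF signalling genes, 1 had an optimal summit there: egl-17, the FGF that attracts sex myoblasts and a ligand of the EGL-15 receptor, with a pooled signal of 138 at rank 121, 53.6 in replicate 1 and 86.1 in replicate 2, 96 bp downstream of the 5′ end. The signal at egl-17 was thus higher than at the egl-15 promoter in every list. Of the T-box genes only mls-1 had an optimal summit there, and of the NK-2 homeobox genes, the family of ceh-24, 0 did. hlh-8 itself had one and its partner hlh-2 did not. At hlh-8 the signal was 79.3, with 32.99 in replicate 1 and 46.05 in replicate 2, and CATATG sites lay within 50 bp. The strain carries an added tagged hlh-8 transgene, whose part in the hlh-8 value was not tested.

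Of 17 genes for fate and function of sex and enteric muscle, 3 had an optimal summit in the promoter window, and 16 had a pooled candidate of any strength there, while the shares of all genes were 5.75% and 53.0%. ceh-20, a PBX-class homeodomain cofactor of the Hox proteins in the M lineage, had 176 at rank 63, with 56.0 in replicate 1 and 119.5 in replicate 2. egl-30, the alpha subunit of the Gq protein that promotes egg laying, had 82.0 at rank 512, with 41.6 in replicate 1 and 39.96 in replicate 2. mab-5, a Hox gene that patterns the M lineage, had 57.4 at rank 1119, the second lowest of the optimal list, with 21.8 in replicate 1 and 35.15 in replicate 2. Each other list had at most 1 gene with an optimal summit in the promoter window.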

How the data were processed

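HLH-8 ChIP-seq peak lists of 2 biological replicates in 1 group were analysed. Per the deposited file inventories, the authors called candidate peaks for each replicate and for both pooled, each against a control, and an irreproducible discovery rate (IDR) step gave the optimal list. Which aligner and peak caller were used is not given in these sources. The signal in column 7 is the authors' deposited value per peak, and whether it was scaled for depth is not given. The -log10 q in column 9 was likewise deposited by the authors, and it reached a ceiling of 3.57 in the pooled list, 2.85 in replicate 1 and 3.37 in replicate 2, so ranks came from the signal. Column 10 gave the summit.

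Lists of ce11 were set against Ensembl release 115 genes and the ce11 chromosome sequences of RefSeq, with 1-based coordinates. The usual width of a pooled candidate was 444 bp. A replicate candidate matched where its strongest summit lay within 200 bp of the pooled summit, and replicate means and SDs are over these values. E-boxes were searched as CANNTG on both strands, in 10 classes. The promoter window was taken around every protein-coding 5′ end. Genes named are the 4 members, the genes with the nearest 5′ end to each optimal peak near them, listed relatives with an optimal peak in the promoter window, and neighbours named for location. The members and lists were chosen with earlier results of these data known. The ce10 optimal list was used for its length of 1631 peaks, and the other ce10 lists were not used. With 1 group no test was made. Alternatives were other windows, gene models, matching distances, list lengths and single replicates. The counting steps were checked on simulated data. Python 3.11.15 with numpy 2.4.6, pandas 2.3.3 and matplotlib 3.10.9 was used.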

Additional observations from a re-analysis of the deposited data

How the results depend on the processing

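The count of genes with an optimal peak within 10 kb was 3 of 4 under 7 of 8 alternatives. Under these 7, the share of all genes ran from 13.8% with 5 kb on either side to 35.4% with 20 kb. The count was 2 of 4 (egl-15 and mls-1) with only the stronger optimal peaks, those above the median signal, where the share of all genes was 12.3%. The promoter count stayed at 1 (mls-1) under 7 of 8, with shares of all genes from 3.07% to 8.00%. It was 2, with ceh-24 added, when the window began 5000 bp upstream, where the share of all genes was 8.91%. Taken from single replicates, promoter signals were 14.4 to 15.8 at arg-1, 10.8 to 16.0 at egl-15, 35.5 to 44.98 at mls-1 and 10.1 at ceh-24, which had no value without replicate 1, and they lie on the replicate lists' own scale. Their ranks ran from 4262 to 6106 at arg-1 and from 4743 to 11625 at egl-15. Members with CATATG at the promoter summit were 0 with 25 bp, 3 with 100 bp, 3 with 200 bp (all genes 7.31%) and 0 at the summits of replicate 1. The share of E-boxes near candidates was 8.59% within 100 bp (genome 5.55%) and 18.5% inside the interval (genome 11.1%), where candidates covered 11.9% of member bases and 10.6% of the genome. Matching summits within 100 or 500 bp gave 8 and 11 of 26 in both replicates. The shares of all pooled candidates at these distances were not computed. No paired analysis was possible because there was 1 group. Without replicate 2, the strongest candidate within 10 kb moved from the promoter to a site 4466 bp downstream of the 5′ end at arg-1 and 3076 bp downstream at mls-1, and without replicate 1 egl-15 passed arg-1 in promoter signal. No value changed its sign. Read depth and the caller's scale are unknown, so no counting error could be given, and 2 replicates and 4 genes limit every spread and share.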

Other observations

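Single replicates held candidates near the 4 genes with no pooled summit within 200 bp, though some of their intervals overlapped a pooled candidate. Replicate 1 had 8, with signals of 8.05 to 16.6 and a best rank of 3746, and replicate 2 had 9, with signals of 7.77 to 12.6 and a best rank of 8627. None of the 17 had a summit within 200 bp in the other replicate. One of replicate 1, with a signal of 13.3 at rank 6763, lay 89 bp downstream of the arg-1 5′ end. Its interval overlapped that of the pooled arg-1 promoter candidate. The strongest, with 16.6, lay in the ldb-1 region 15608 bp downstream of the last egl-15 5′ end.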
